A study of Mus musculus with 4 samples.

Results

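miR-21 is a microRNA, a short RNA that guides Argonaute proteins to matching messenger RNAs and lowers their output. Its hairpin yields an abundant guide arm, miR-21, and a rarer arm from the opposite strand of the stem, miR-21* (star names mark the arm listed as the passenger). The rows mmu-miR-21 and mmu-miR-21* were chosen by name, and these 2 of 508 endogenous microRNAs listed in the series, were found in every library. Small RNAs were counted in cultured fibroblasts from mouse embryos (MEFs) of the strain shLuc.1309. Its cells hold an inducible hairpin (shRNA) directed at luciferase, which has no counterpart in mice. The 4 groups, with 1 library each, are shLuc.1309;ROSA-rtTA cells with doxycycline (rtTA, +dox), the same genotype without it (rtTA, -dox), shLuc.1309 cells with doxycycline (no rtTA, +dox) and shLuc.1309 cells without it (no rtTA, -dox). rtTA is the reverse tetracycline transactivator, which turns on a tetracycline-responsive promoter when doxycycline (dox) is bound, and ROSA names the broadly active Rosa26 locus. All groups thus carry the shRNA, and dox was given with and without the protein that it acts on. The labels used here give no embryo age, dox dose, duration or number of embryos.

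miR-21 is known in fibroblasts as a microRNA that STAT3, AP-1 and TGF-beta signalling raise, the last in part through SMAD proteins that help Drosha to cut the primary transcript. Its known targets include Pdcd4, Spry1, Reck and Timp3, which restrain translation, ERK signalling and matrix breakdown. High miR-21 is a common feature of fibrosis and of many tumours. Messenger RNAs were not measured here.

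The arms are shown with their seed, bases 2 to 8 counted from the 5′ end, in capitals, because the seed sets which transcripts each arm can pair with. The arms are printed from the deposited files, the loop between them (lower case throughout) from RefSeq, build GRCm38.p6.
miR-21: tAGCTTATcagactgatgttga
loop: cuguugaaucucaugg
miR-21*: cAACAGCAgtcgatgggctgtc
The arms match the RefSeq entries mmu-miR-21a-5p, chr11:86584120-86584141, and mmu-miR-21a-3p, chr11:86584082-86584103, both on the minus strand. The hairpin of 92 bases, gene Mir21a, lies in exon 12 of 12 of the Vmp1 transcript Vmp1-201 by GENCODE M21 annotation, within the 3′ untranslated region. Vmp1 encodes a membrane protein of autophagy. The hairpin starts 1149 bases past the stop codon and ends 202 bases before the transcript end. Of the 292 RefSeq hairpins matched to listed microRNAs, 8 (2.74%) lay wholly within an exon of a coding transcript on the same strand. In the minimum free energy fold of the hairpin (RNAfold, -46.2 kcal/mol) 19 of the 22 bases of miR-21 were paired, all 19 with miR-21*. The bases CAGAC, known in human cells as an RNA motif bound by SMAD proteins, occur once, from base 9 of miR-21. The search covered the sequence of the hairpin RNA itself. Of 1005 RefSeq mouse hairpins 80 (7.96%) hold these letters. The match is a description, and binding was not measured.

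No other listed microRNA shares the seed of miR-21 or of miR-21*, and none came closer than 8 mismatches to either. RefSeq holds a pair of further mouse genes named for miR-21, with mature sequences on chromosomes 3 and 8. They are shown because reads of such relatives could be counted as miR-21.
miR-21b: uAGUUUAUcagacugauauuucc
miR-21c: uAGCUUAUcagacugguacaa
miR-21c has the seed of miR-21 and the same first 15 bases, then differs, with 5 mismatches over its length. miR-21b first differs at base 4, within the seed, with 4 mismatches in the aligned bases. No source used here says how such reads were counted.

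miR-21 was the most abundant microRNA in each library. It held 1455314 counts in rtTA, +dox, 1818873 in rtTA, -dox, 1394404 in no rtTA, +dox and 1468803 in no rtTA, -dox. The libraries hold 7507893, 8774056, 6540030 and 6378964 endogenous microRNA counts in the same order. miR-21 therefore took 19.4% (19.36% to 19.41%), 20.7% (20.70% to 20.76%), 21.3% (21.29% to 21.35%) and 23.0% (22.99% to 23.06%) of them, with exact Clopper-Pearson 95% intervals. These intervals do not overlap, and the order runs upward from the library with dox and rtTA to the library with neither. Intervals here and below cover counting error only, since amplified reads are not independent molecules, and no spread between cultures was measured. Between the libraries at the ends of this order the level differed 1.19-fold. In log2 units of counts per 1000000 endogenous counts (CPM) that range is 0.25, against a median range of 0.66 over the 372 microRNAs that passed a floor of 20 counts in the shallowest library, or 3.14 CPM. Of these 372, 25 had a narrower range than miR-21, among them 1 of the other 9 of the 10 most abundant, miR-130a (0.23).

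**Figure D1:**
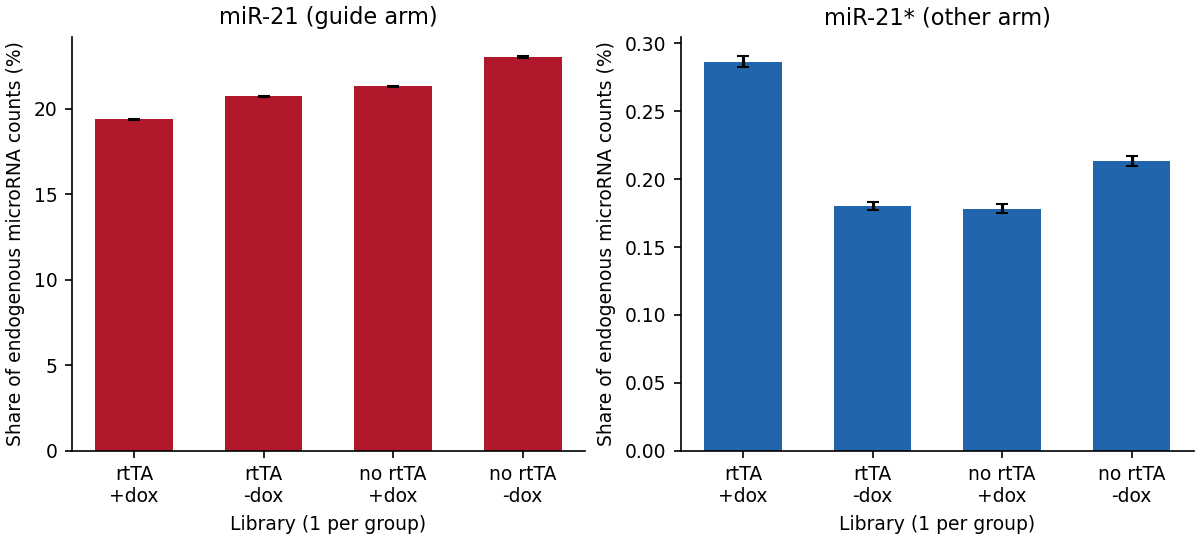
Share of endogenous microRNA counts (%) held by miR-21 (left) and miR-21* (right) in the 4 libraries; bars are single libraries and error bars exact Clopper-Pearson 95% intervals. miR-21 lies between 19.4% and 23.0%, and miR-21* is highest in rtTA, +dox at 0.286%.

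The lead of miR-21 over the next microRNAs differed more than its own share. miR-22, which follows it in each library, took 12.8% of the endogenous counts in rtTA, +dox, 10.8% in rtTA, -dox, 9.74% in no rtTA, +dox and 10.5% in no rtTA, -dox. miR-21 had 1.51, 1.92, 2.19 and 2.19 counts for each count of miR-22 in that order. A ratio within a library does not depend on scaling, and the lowest of the 4 was that of the induced library, where miR-22 was highest. Against miR-143, a smooth muscle and fibroblast microRNA that ranks next, the ratios were 2.04 in rtTA, +dox, 2.39 in rtTA, -dox, 2.28 in no rtTA, +dox and 2.94 in no rtTA, -dox. miR-21 has 22.7% G, against 27.3% in miR-22 and 28.6% in miR-143. As given below, ratios of the induced library to rtTA, -dox rose with the percentage of G. The part of base composition in the lead of miR-21 was not tested. In rtTA, +dox, miR-22 and miR-143 together outnumbered miR-21, while in the other libraries the 3 next microRNAs were needed. From the other end, the 447 least abundant of 477 listed microRNAs in rtTA, +dox together held no more counts than miR-21 alone. The matching numbers were 449 of 476, 436 of 463 and 438 of 462 in the other libraries in the order above.

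**Figure D2:**
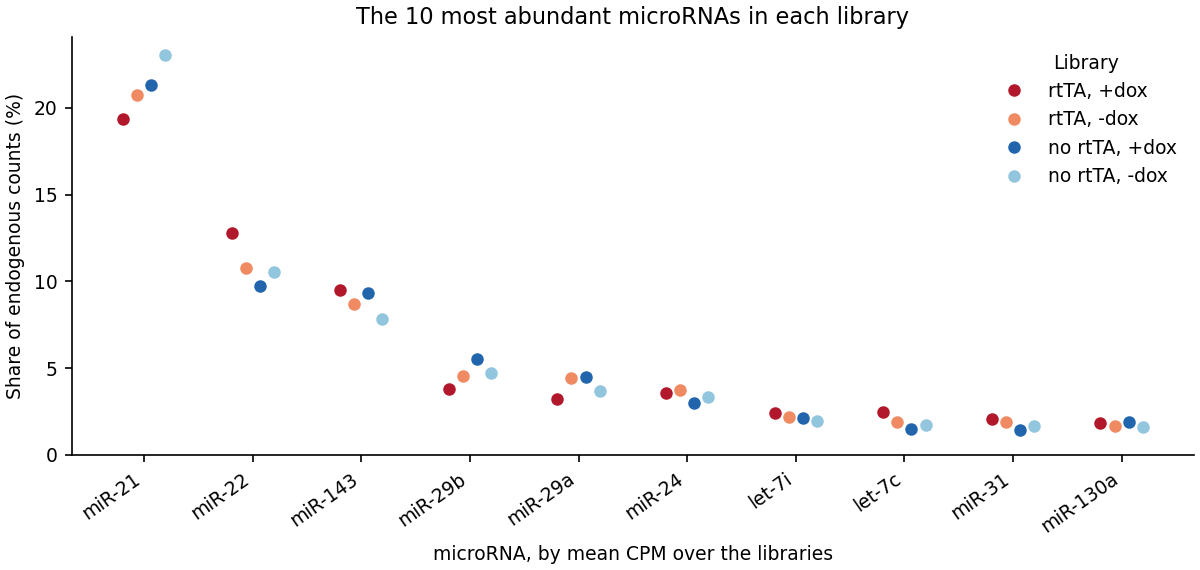
Share of endogenous counts (%) of the 10 most abundant microRNAs by mean CPM, 1 point for each of the 4 libraries. miR-21 stands above miR-22 and miR-143 in every library, with its lowest point in rtTA, +dox, where miR-22 has its highest, 12.8%.

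The shRNA, which shares the microRNA pathway after transcription, gives a scale for this abundance. It held 183085 counts in rtTA, +dox, 6898 in rtTA, -dox, 5063 in no rtTA, +dox and 4630 in no rtTA, -dox. Per shRNA count there were 7.95 counts of miR-21 in the induced library, against 264, 275 and 317 in the others. The induced shRNA count thus stayed below that of miR-21, but exceeded that of miR-21* 8.51-fold in rtTA, +dox. In the others the shRNA was at 0.436, 0.434 and 0.340 of the miR-21* count. These are ratios of counts, and the part of base composition in them was not tested.

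Most of the endogenous counts fell on a list of fibroblast and mesenchymal markers. That list holds the most abundant microRNAs here, miR-21, miR-22 and miR-143, and was chosen with earlier results of these data known. Its sum is therefore a description and no test of cell type. The 18 listed fibroblast and mesenchymal markers, miR-21 included, all passed the floor and summed to 59.4% to 61.5% of the endogenous counts. The 7 epithelial markers summed to 5.49 to 20.3 CPM, none past the floor. The 4 listed pluripotency markers summed to 0.306 to 0.666 CPM. The 6 blood markers summed to 52.5 to 82.2 CPM, the 2 endothelial ones to 120 to 175, the 4 muscle ones to 246 to 592 and the 4 neuronal ones to 413 to 617, while the liver marker miR-122 was at 2.51 to 3.99 CPM. miR-21, at 193838 CPM or above, exceeded the sum of each of these lists other than the fibroblast one, of which it is a member. In bulk RNA, fewer cells of a type and less RNA per cell cannot be told apart. The muscle sum was highest in rtTA, +dox (592 CPM, against 382 in rtTA, -dox). Most of it was miR-206, at 575 CPM in rtTA, +dox and 352 CPM in rtTA, -dox. The other listed muscle markers, miR-1, miR-133a and miR-133b, were all lower in rtTA, +dox than in rtTA, -dox. Their log2 ratios were -1.08, -0.44 and -0.32. The higher sum was thus that of miR-206 and not of the list as a group. The part of the muscle sum in the values of either arm was not tested.

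Dox in rtTA cells switches the shRNA on, and the comparison asks whether endogenous microRNAs differ when it is abundant. miR-21 was at 193838 CPM in rtTA, +dox and 207301 CPM in rtTA, -dox, a log2 ratio of -0.10 (-0.100 to -0.094). It was thus 0.935-fold the uninduced level, beyond counting error but small: 49 of 372 microRNAs (13.2%) had a ratio closer to 0. A microRNA was called where the libraries differed by 2-fold or more and the interval left out equality, and here 0 of the 2 arms were called. Of all 372, 1.34% were called higher and 8.6% lower, while for 73.1% the interval alone excluded equality. The miR-21 ratio was -0.052 with TMM factors and -0.059 with DESeq2 factors. It turned to 0.013 once a linear trend on the percentage of G was subtracted.

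miR-21* went the other way in this comparison. It had 21505 counts, 2864 CPM, in rtTA, +dox, against 15823 counts, 1803 CPM, in rtTA, -dox. The log2 ratio was 0.67 (0.64 to 0.70), or 1.59-fold. This is below the 2-fold line, but 29 of 372 microRNAs had a higher ratio. The induced library lies above each of the other 3 libraries, whose miR-21* levels were between 1784 and 2134 CPM. Its rank among the endogenous microRNAs was 48 in rtTA, +dox, 62 in rtTA, -dox, 68 in no rtTA, +dox and 58 in no rtTA, -dox.

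Dox without rtTA sets the drug apart from the induction of the shRNA, which took 0.0774% of all counts in no rtTA, +dox and 0.0725% in no rtTA, -dox. miR-21 was at 213211 CPM in no rtTA, +dox and 230257 CPM in no rtTA, -dox, a log2 ratio of -0.11 (-0.114 to -0.108). That is 0.926-fold, and 83 of 372 microRNAs (22.3%) were closer to 0. miR-21* had 11665 counts (1784 CPM) in no rtTA, +dox, against 13615 counts (2134 CPM) in no rtTA, -dox. Its log2 ratio was -0.26 (-0.29 to -0.22), so both arms were lower with dox in these cells. Neither arm was called, with 0.806% of all 372 called higher and 0.806% lower, and 67.2% with an interval that left out equality.

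The dox ratios of miR-21 with and without rtTA were alike, and those of miR-21* were not. For miR-21 they differed by 0.014 (0.0095 to 0.019; rtTA minus no rtTA, log2, delta-method interval), and 3 of 372 microRNAs had a smaller difference. For miR-21* the difference was 0.93 (0.88 to 0.97), larger in size than in 283 of 372. A difference of 2-fold or more whose interval left out equality was found for 5.65% upward and 12.4% downward, and neither arm was among them. After the trend on G was subtracted from both ratios, the differences were 0.15 for miR-21 and 0.59 for miR-21*.

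rtTA without dox compares the genotypes without induction of the shRNA. miR-21 was at 207301 CPM in rtTA, -dox and 230257 CPM in no rtTA, -dox, a log2 ratio of -0.15 (-0.155 to -0.148), or 0.900-fold. Of 372 microRNAs 117 (31.5%) were closer to 0. With DESeq2 factors it was -0.086. miR-21* was at 1803 CPM in rtTA, -dox and 2134 CPM in no rtTA, -dox, a log2 ratio of -0.24 (-0.28 to -0.21). Neither arm was called, where 0.538% of all were called higher and 1.34% lower, and 64.8% had an interval that left out equality.

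The last comparison, rtTA with dox, sets the induced library against treated cells without rtTA, and so shares its libraries with both dox comparisons. miR-21 was at 193838 CPM in rtTA, +dox and 213211 CPM in no rtTA, +dox, a log2 ratio of -0.14 (-0.141 to -0.134). It was -0.058 with either TMM or DESeq2 factors and -0.0063 after the trend on G was subtracted. miR-21* was at 2864 CPM in rtTA, +dox and 1784 CPM in no rtTA, +dox, a log2 ratio of 0.68 (0.65 to 0.72). Of 372 microRNAs 36 lay higher. Neither arm was called, against 2.42% of all called higher and 14.2% lower, while for 75.8% the interval alone left out equality.

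**Figure D3:**
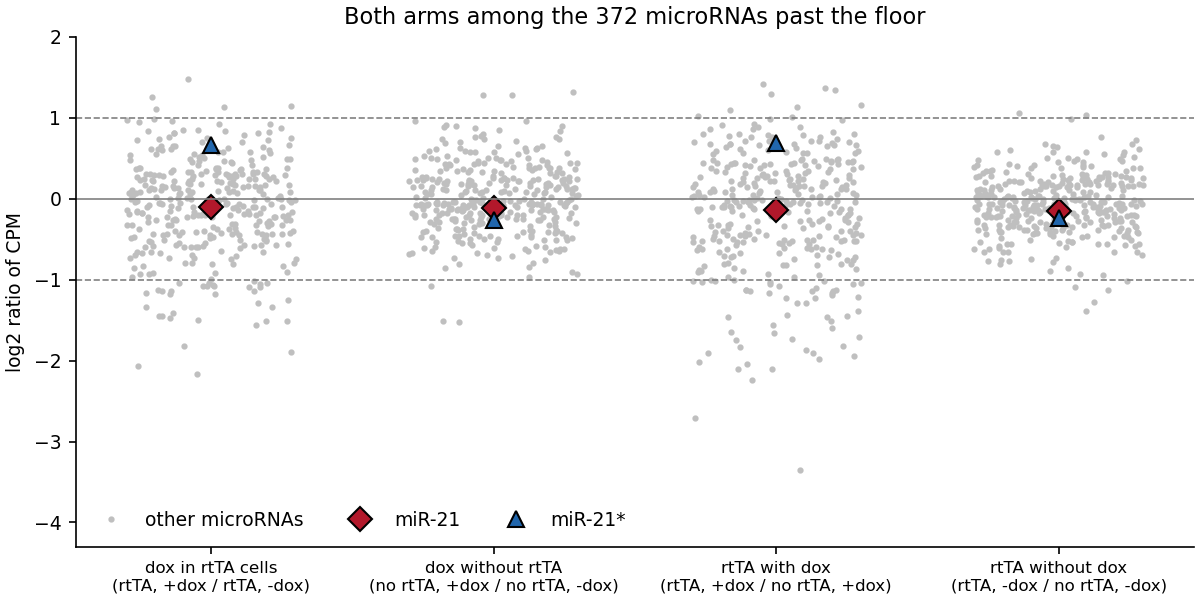
log2 ratio of CPM in the 4 comparisons of 2 libraries for miR-21 (diamonds), miR-21* (triangles) and the other microRNAs past the floor (grey points, spread sideways at random); dashed lines mark 2-fold. miR-21 lies just under 0 in each comparison, and miR-21* lies at 0.67 and 0.68 where the induced library is on top and at -0.26 and -0.24 in the others.

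A fit over all 4 libraries took dox and rtTA as additive terms, which pairs 2 libraries with 2 and leaves 1 residual degree of freedom. The dox term of miR-21 was -0.09 with a standard error of 0.11 (log2; edgeR quasi-likelihood test, adjusted p = 0.999), and its rtTA term -0.09 with a standard error of 0.11 (edgeR, adjusted p = 0.961). For miR-21* the dox term was 0.22 with a standard error of 0.34 (edgeR, adjusted p = 0.999) and the rtTA term 0.27 with a standard error of 0.34 (edgeR, adjusted p = 0.961). edgeR called 0 of 372 microRNAs (0%) for either term, and DESeq2 also called 0. At an unadjusted p under 0.05 edgeR had 11 for dox and 25 for rtTA, and DESeq2 11 and 15. The differences of miR-21 between libraries were thus larger than counting error, but neither of its terms passed this test. The fit has no term for a dox effect that depends on rtTA. Its residual therefore holds any such dependence together with any spread between libraries, and these cannot be told apart. edgeR also pooled the residual across microRNAs. For miR-21* the log2 dox ratio was 0.67 with rtTA and -0.26 without, so its dox term of 0.22 lies between opposite directions. No conclusion on either arm is drawn from these terms.

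Because miR-21 holds 19.4% to 23.0% of each library, its share weighs on the CPM of every other microRNA. The rest of the endogenous counts made up 80.6% in rtTA, +dox, 79.3% in rtTA, -dox, 78.7% in no rtTA, +dox and 77.0% in no rtTA, -dox. Scaling to the counts without miR-21 and miR-21* moved every other log2 ratio by -0.022 (dox in rtTA cells), -0.032 (dox without rtTA), -0.033 (rtTA with dox) and -0.043 (rtTA without dox). The calls were then 5 higher and 35 lower (dox in rtTA cells), against 5 and 32 with miR-21 in the total. They were 3 and 3 for dox without rtTA, as before, 7 and 54 for rtTA with dox, against 9 and 53, and 1 and 5 for rtTA without dox, against 2 and 5.

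The balance of the arms set the induced library apart. Of the counts of both arms, miR-21* made up 1.46% (1.44% to 1.48%) in rtTA, +dox. It made up 0.862% (0.849% to 0.876%) in rtTA, -dox, 0.830% (0.815% to 0.845%) in no rtTA, +dox and 0.918% (0.903% to 0.934%) in no rtTA, -dox. There were 67.7 counts of miR-21 per count of miR-21* in rtTA, +dox, against 115, 120 and 108 in the others. Most hairpins had a larger share of their rarer arm: over the 125 hairpins with both arms listed and at least 20 counts over both arms together in each library, its median share was 4.44% to 5.30%. Of these 125, 40 had a lower share than miR-21* in rtTA, +dox, and 27, 21 and 27 in the others in the same order. Arms were paired by name. Where more than a single hairpin yields the same arm, as for miR-16 (chromosomes 14 and 3), its counts can come from each of them. Other arms among the 125 were not checked for this.

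The odds of miR-21* against miR-21 were 1.70-fold (1.66 to 1.73) in rtTA, +dox relative to rtTA, -dox, a log2 odds ratio of 0.76. Of the 125 hairpins, 14 had a higher odds ratio, and the median was -0.090. Relative to no rtTA, +dox the odds in rtTA, +dox were 1.77-fold (1.73 to 1.81), where 10 hairpins lay higher and the median was -0.074. In the comparisons without the induced library the odds were 0.902-fold (0.880 to 0.925; dox without rtTA) and 0.938-fold (0.917 to 0.960; rtTA without dox). An odds ratio of 2-fold or more whose interval left out equality was not reached by miR-21* in any comparison. The shares of hairpins past it, higher and lower, were 4% and 16% (dox in rtTA cells), 3.2% and 2.4% (dox without rtTA), 6.4% and 18.4% (rtTA with dox), and 2.4% and 1.6% (rtTA without dox).

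Among the 4 of these 125 hairpins with the most counts after miR-21, the arms differed in both directions. With dox in rtTA cells the log2 odds ratio of the rarer arm was -0.31 for miR-22 (-0.36 to -0.25), -0.40 for miR-29b (-0.71 to -0.10) and -0.27 for let-7i (-0.54 to -0.0016). It was 0.34 for miR-29a (0.24 to 0.44), the only one of these 4 on the side of miR-21.

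Base composition moved with these values. The arms are printed again with each G in capitals, above the 5 microRNAs of at least 100 CPM whose levels over the 4 libraries lay closest to those of miR-21*.
miR-21: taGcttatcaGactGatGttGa
miR-21*: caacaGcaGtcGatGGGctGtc
miR-296-3p: GaGGGttGGGtGGaGGctctcc
miR-770-3p: cGtGGGcctGacGtGGaGctGG
miR-382: GaaGttGttcGtGGtGGattcG
miR-210: ctGtGcGtGtGacaGcGGctGa
miR-540-3p: aGGtcaGaGGtcGatcctGG
miR-21 has 5 G among 22 bases (22.7%) and miR-21* has 7 (31.8%), while the 5 microRNAs below them have 40% to 50%. Across the 372 microRNAs (not independent of each other) the Pearson correlation of the log2 ratio with the percentage of G was 0.72 for dox in rtTA cells and 0.69 for rtTA with dox. It was -0.20 for dox without rtTA and -0.0038 for rtTA without dox. In dox in rtTA cells the 130 other microRNAs within 5 percentage points of the G content of miR-21* had a median ratio of 0.16 (quartiles -0.092 and 0.36), against 0.67 for miR-21* itself. The 157 near miR-21 had a median of -0.17 (quartiles -0.42 and 0.077), against -0.10 for miR-21. miR-21* thus lay above the upper quartile of microRNAs of its composition, and miR-21 inside the quartiles. After subtraction of the trend the ratio of miR-21* was 0.39, and in rtTA with dox it was 0.35. The part of base composition in the level of either arm was not tested beyond this subtraction.

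**Figure D4:**
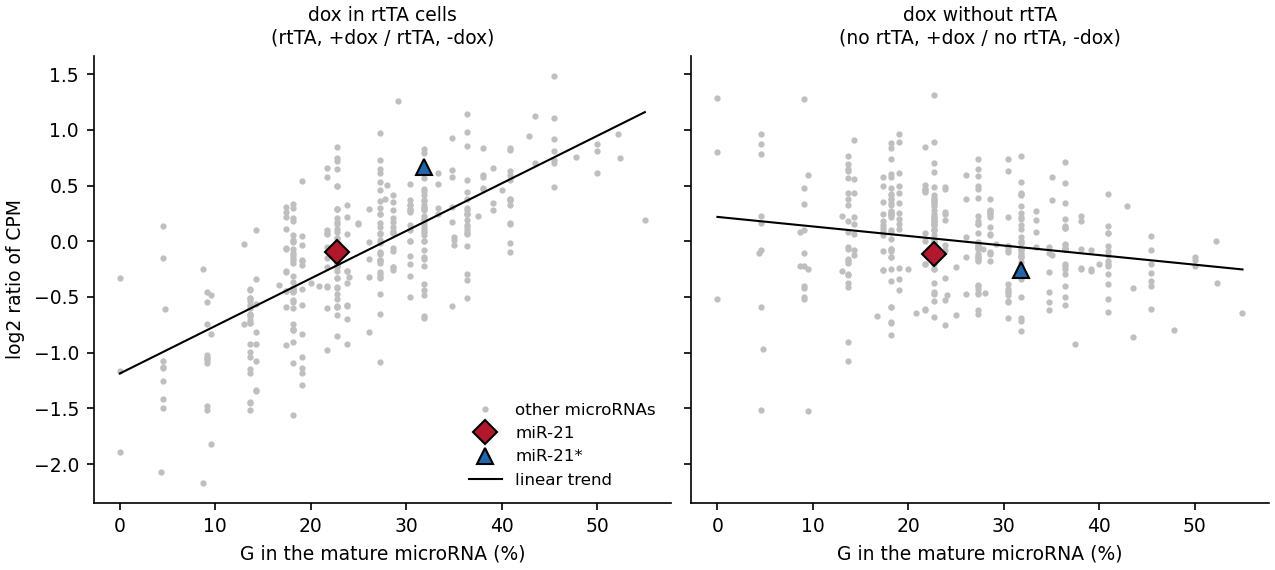
log2 ratio of CPM against the percentage of G in the mature microRNA for dox in rtTA cells (left) and dox without rtTA (right); grey points are other microRNAs past the floor and the line is a linear fit over all 372. On the left miR-21 lies near the line and miR-21* above it at 0.67; on the right both lie below the line.

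The arm odds were compared with the same property. miR-21* has 9.09 percentage points more G than miR-21, and 49 of 125 rarer arms have more G than their partner. Across the 125 hairpins the Pearson correlation of the log2 odds ratio with that difference was 0.65 for dox in rtTA cells and 0.65 for rtTA with dox. It was -0.013 for dox without rtTA and 0.11 for rtTA without dox. Of 27 other hairpins within 5 points of the miR-21 difference, the median log2 odds ratio for dox in rtTA cells was 0.45 (quartiles 0.21 and 0.75), and 6 exceeded the 0.76 of miR-21. After a linear trend on the difference was subtracted, the log2 odds ratio of miR-21* was 0.18 for dox in rtTA cells and 0.16 for rtTA with dox. Induction of the shRNA, and whatever in the preparation of that library goes with G content, cannot be told apart with 1 library per group.

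**Figure D5:**
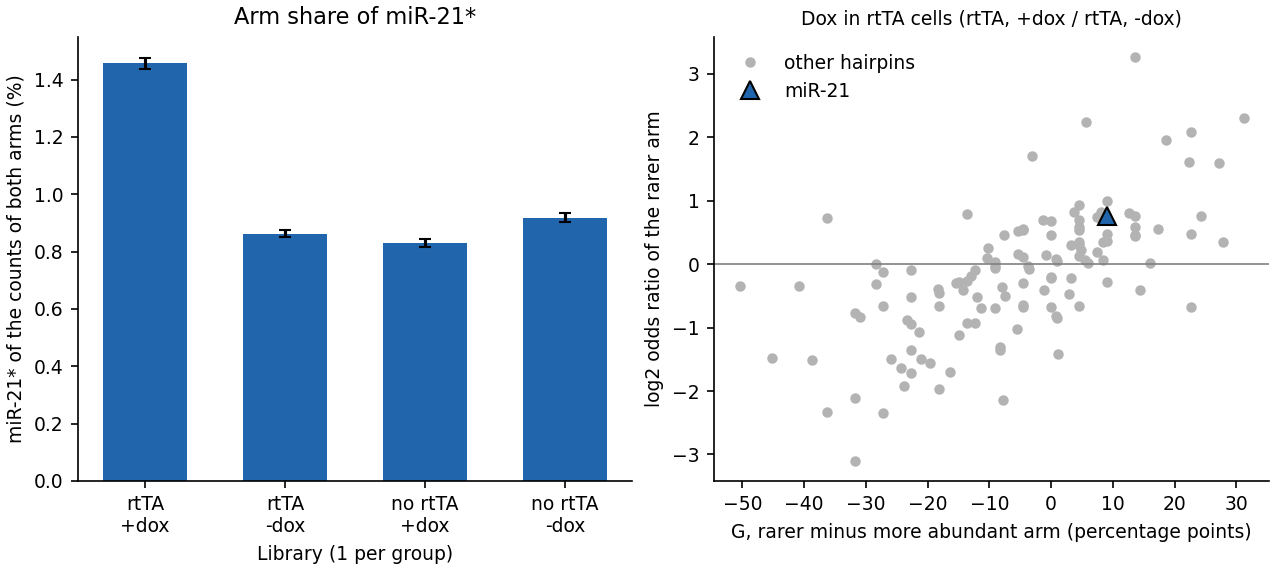
Left, miR-21* as a percentage of the counts of both arms in the 4 libraries, with exact Clopper-Pearson 95% intervals: 1.46% in rtTA, +dox and 0.830% to 0.918% in the others. Right, log2 odds ratio of the rarer arm for dox in rtTA cells against the difference in G content between the arms for 125 hairpins, with miR-21 (triangle) at 0.76.

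The arms also differ at their first base, where Argonaute is known to hold U or A more readily than C or G. miR-21 begins with T (U in the RNA), as do 67 of the 125 more abundant arms (53.6%) and 26 of the rarer arms (20.8%). miR-21* begins with C, as do 18 of the more abundant arms (14.4%) and 41 of the rarer ones (32.8%).

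The arms did not follow each other over the 4 libraries. Likeness was measured as the root mean square difference of log2 CPM, each microRNA centred on its own mean over the libraries, among 201 others of at least 100 CPM. The closest to miR-21 was miR-28, at 0.048, with 7741 CPM in rtTA, +dox, 8339 in rtTA, -dox, 7919 in no rtTA, +dox and 8755 in no rtTA, -dox. miR-107 (0.062), miR-151-5p (0.062), miR-16 (0.075) and miR-467c (0.076) came next, with 26.1% to 31.8% G. The closest to miR-21* was miR-296-3p (0.062), with 833 CPM in rtTA, +dox, 543 in rtTA, -dox, 508 in no rtTA, +dox and 571 in no rtTA, -dox. miR-770-3p (0.062), miR-382 (0.062), the hypoxia-responsive miR-210 (0.074) and miR-540-3p (0.075) followed. miR-21* stood at place 151 in the order for miR-21, at 0.33. These are descriptions over 4 libraries, with genes chosen for their likeness.

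Other microRNAs that act with or against miR-21 were taken from lists fixed by name. The 5 other microRNAs induced in inflammation or by AP-1 (miR-146a, miR-146b, miR-155, miR-221 and miR-222) had 0 calls, higher or lower, in any of the 4 comparisons. Over all 372 the shares called higher were 0.538% to 2.42% and those called lower 0.806% to 14.2%, so a count of 0 among so few is near the background. Their median log2 ratios were -0.11 (dox in rtTA cells), -0.046 (dox without rtTA), 0.094 (rtTA with dox) and 0.12 (rtTA without dox). The medians over all 372 were -0.057, -0.039, -0.074 and -0.071 in that order. miR-221, the most abundant of them, was at 3007 CPM in rtTA, +dox, 3763 in rtTA, -dox, 3502 in no rtTA, +dox and 2694 in no rtTA, -dox. miR-155, a marker of activated immune cells and inflamed fibroblasts, was at 1810 CPM in rtTA, +dox, 1986 in rtTA, -dox, 1695 in no rtTA, +dox and 1750 in no rtTA, -dox. Its levels and those of miR-21 did not run in the same order.

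Among microRNAs known to promote fibrosis beside miR-21 (miR-34a, miR-143, miR-145, miR-199a-5p and miR-214), 0 of 5 were called in any comparison, again near the background just given, with medians of 0.055, 0.12, -0.15 and -0.18 in the same order. Those known to restrain fibrosis were lowest in the induced library as a sum. Of miR-26a, miR-29a, miR-29b, miR-29c, miR-133a and let-7d, 0 of 6 were called in dox in rtTA cells. Of all 372, 1.34% were called higher there and 8.6% lower. All 6 ratios were below 0 (median -0.44), as was the median over all 372 (-0.057). miR-29a, miR-29b and miR-29c are of the same family, so these ratios are not independent. The most abundant of the 6, miR-29b and miR-29a, have 17.4% and 18.2% G. Another of the 6, let-7d, has more G than these, and its log2 ratio for dox in rtTA cells was -0.51. In this comparison the ratios of all 372 correlated with the percentage of G (0.72). The part of base composition in these 6 ratios was not tested. The medians were 0.23 for dox without rtTA, -0.51 for rtTA with dox and 0.19 for rtTA without dox. The only call, where 14.2% of all were called lower, was miR-29c in rtTA with dox, at a log2 ratio of -1.02, with 473 CPM in rtTA, +dox and 957 CPM in no rtTA, +dox. It fell short of 2-fold at -0.94 with TMM or DESeq2 factors, -0.99 without the 10 most abundant and -0.65 with the trend on G subtracted. Together these 6 held 9.01% of the endogenous counts in rtTA, +dox, 11.6% in rtTA, -dox, 12.6% in no rtTA, +dox and 10.9% in no rtTA, -dox. Their sum was thus below that of miR-21 in each library.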

How the data were processed

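Small RNA libraries of mouse embryonic fibroblasts were read from the deposited tables, which list raw read counts per microRNA, 1 table per library, with 1 row for the shRNA. Per the labels' protocols RNA was extracted with Trizol or phenol and chloroform, and a growth temperature of 24 degrees C is listed. The aligner, mismatches allowed, treatment of shared reads, microRNA database version and genome build were not given in the sources used here. Unlisted microRNAs were set to 0.

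CPM were computed from endogenous counts, without the shRNA. Intervals are exact (Clopper-Pearson) for shares, conditional binomial for ratios, Wald for odds ratios and delta-method with 0.5 added for differences of ratios, all at 95%. Depth was 6378964 to 8774056 endogenous counts. With 1 library per group no p-value compares groups. Additive fits used edgeR 4.0.16 (TMM, quasi-likelihood test) and DESeq2 1.42.0 with Benjamini-Hochberg adjustment over the microRNAs past the floor. The calculations were tested on simulated data in which dox acted alike with and without rtTA and no trend on G was set. Ratio intervals and calls were tested there with counting error only, scaled by the unchanged microRNAs and not by the endogenous total. For the additive fit a small spread between libraries was added. That simulation does not show how the calculations behave where these conditions fail. Python 3.11.15, scipy 1.17.1 and RNAfold 2.7.2 were used. The trend on G was subtracted about the mean G content. Named microRNAs are both arms, the 10 most abundant, the 5 closest in pattern to each arm, and seed or sequence relatives. Also named are the 5 hairpins with the most counts among those with both arms listed, and members of the lists. Members and lists were chosen with earlier results of these data known. A further list of microRNAs is not reported here.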

Additional observations from a re-analysis of the deposited data

Results flagged for a closer look

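miR-21* was higher with dox in cells with rtTA and lower with dox in cells without rtTA, so the libraries moved in opposite directions. The log2 dox ratios differed by 0.93 (rtTA minus no rtTA), and the log2 odds ratios of the miR-21* arm for dox differed by 0.91. With the trends on G content subtracted these differences were 0.59 and 0.32. With 1 library per group these differences were not tested.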

How the results depend on the processing

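The log2 ratio of miR-21 stayed below 0 in the 4 comparisons under each setting tried except 1, the trend on G in dox in rtTA cells. It was -0.052 (TMM), -0.059 (DESeq2 factors), -0.13 (shRNA in the total), -0.077 (without the 10 most abundant) and 0.013 (trend on G subtracted) for dox in rtTA cells. For dox without rtTA it was -0.12 (TMM), -0.087 (DESeq2), -0.097 (without the 10 most abundant) and -0.13 (trend on G). For rtTA with dox it was -0.058 (TMM), -0.058 (DESeq2), -0.17 (shRNA in the total), -0.11 (without the 10 most abundant) and -0.0063 (trend on G). For rtTA without dox it was -0.13 (TMM), -0.086 (DESeq2) and -0.13 (without the 10 most abundant). Its share in rtTA, +dox was 18.9% with the shRNA in the total. With passenger strands left out of the total it was 19.7% (rtTA, +dox), 21.1% (rtTA, -dox), 21.7% (no rtTA, +dox) and 23.4% (no rtTA, -dox). The difference of dox ratios was 0.15 for miR-21 and 0.59 for miR-21* with the trend on G subtracted. The log2 odds ratio of miR-21* was 0.18 (dox in rtTA cells), 0.16 (rtTA with dox) and -0.16 (rtTA without dox) with the trend on the G difference subtracted, and the difference of the 2 dox odds ratios was 0.32. This alternative, and those of miR-29c, were chosen after seeing the data; the cause of these shifts was not tested. The ratio of miR-21* kept its direction under each setting. For dox in rtTA cells it was 0.71 (TMM), 0.70 (DESeq2), 0.63 (shRNA in the total) and 0.39 (trend on G). For rtTA with dox it was 0.76 (TMM and DESeq2), 0.65 (shRNA in the total), 0.71 (without the 10 most abundant) and 0.35 (trend on G). It was -0.20 for dox without rtTA (trend on G) and -0.18 for rtTA without dox (DESeq2). For all microRNAs, subtraction of the trend on G gave 2 higher and 7 lower (dox in rtTA cells, against 5 and 32) and 24 lower (rtTA with dox, against 53). In dox in rtTA cells TMM factors gave 8 higher. In dox without rtTA, 6 were lower with a floor of 5 counts or none and 5 with the trend on G subtracted, and 5 were higher with no floor, against 3 and 3. In rtTA without dox a floor of 5 counts or none gave 7 higher, against 2, no floor gave 8 lower, against 5, and scaling without both miR-21 arms gave 1 higher. With no floor, edgeR called 1 microRNA for the rtTA term, miR-205, named after its value was seen. No microRNA lay within 2 mismatches of either arm, so adding such counts changed nothing. No paired analysis was possible because each group has 1 library and the labels carry no replicate numbers. Leaving out a library leaves the additive fit no residual degree of freedom. With this many counts depth does not limit either arm; the missing spread between cultures does.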
